A study of Homo sapiens with 4 samples.

Results

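MAP1B, tau (MAPT) and 6 further genes for proteins that bind microtubules or their tubulin subunits were followed through the response of T47D cells to baicalein. The 8 genes (MAP1B, MAP1A, MAP1S, MAP2, MAPT, MAP4, MAP7 and STMN1) were picked by symbol from the 20515 rows of the count table, and all 8 were present and passed the filter on low counts. They were chosen with the results of the same comparison known, MAP1B being among the largest rises, so their values are given as a description. T47D is a cell line derived long ago from a human breast carcinoma of luminal, estrogen receptor-positive type. Poly(A) RNA was sequenced from 2 samples treated with baicalein, a plant flavonoid, and from 2 control samples labelled as having no treatment. No dose, duration or vehicle is stated in the labels, and every library came from this line alone.

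Microtubules are polymers of α- and β-tubulin that grow and shrink at their ends. Structural microtubule-associated proteins (MAPs) bind along the polymer and stabilise or bundle it, whereas stathmin, the product of STMN1, binds free tubulin dimers and favours shrinkage. MAP1B, MAP2 and tau are best known from neurons, and MAP4 and MAP7 from epithelial and other non-neuronal cells. In breast cancer cells MAPT is known as an estrogen-responsive gene, and the tau level has been studied beside the response to taxanes, drugs that bind microtubules.

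The regions around annotated starts of the genes with the largest rise and the largest fall are shown first. The part of their sequence in those changes was not tested. RefSeq promoter windows on GRCh38.p14, running from 250 bases before to 50 bases after a start, were held for 7 of the 8 genes, 17 windows in all, and not for MAPT. The first listed window of MAP1B lies at chr5:72107225-72107524 on the plus strand and that of STMN1 at chr1:25906370-25906669 on the minus strand. Capitals mark matches on either strand to 9 motifs. These are the core GCGTG of the aryl hydrocarbon receptor element, the NRF2 motif TGACNNNGC, the composite motif TGATGNAA of ATF4 and its partners, the E2F motif TTTGGCGC, the NF-Y box CCAAT, the E-box CACGTG, the cyclic AMP response element TGACGTCA, the hexamer AGGTCA bound by the estrogen receptor, and the TATA box motif TATAAA.
MAP1B: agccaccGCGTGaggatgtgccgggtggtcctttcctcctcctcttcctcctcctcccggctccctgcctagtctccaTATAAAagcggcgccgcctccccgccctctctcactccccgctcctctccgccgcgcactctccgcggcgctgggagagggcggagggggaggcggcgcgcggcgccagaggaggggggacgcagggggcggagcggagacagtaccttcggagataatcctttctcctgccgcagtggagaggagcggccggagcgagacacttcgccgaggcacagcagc
STMN1: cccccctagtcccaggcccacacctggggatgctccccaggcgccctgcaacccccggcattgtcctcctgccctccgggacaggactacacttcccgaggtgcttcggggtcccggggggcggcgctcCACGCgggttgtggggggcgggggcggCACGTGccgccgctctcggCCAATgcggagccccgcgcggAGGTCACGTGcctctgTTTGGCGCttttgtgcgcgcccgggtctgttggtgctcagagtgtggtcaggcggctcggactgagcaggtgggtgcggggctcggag

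The MAP1B window held 1 GCGTG match and 1 TATAAA match, letters found in 36.5% and 11.6% of all 34943 promoter windows. The TATAAA match lay 172 bases before the RefSeq start of this window. The STMN1 window held 1 TTTGGCGC match 38 bases before the start, letters found in 0.65% of all windows, and 2 CACGTG matches (7.23% of windows), 1 of which overlaps the AGGTCA match (13.8%). It also held 1 match each to CCAAT (34.6%) and GCGTG. TGATGNAA (3.62% of all windows), TGACGTCA (1.84%) and TGACNNNGC (13.3%) had no match in either window. GC content was 70.0% in the MAP1B window and 72.7% in the STMN1 window, against a median of 58.7% over all windows. Both genes have other listed windows with different matches. Windows 2 and 3 of STMN1 held 3 and 1 GCGTG matches and no match to another motif. Window 2 of MAP1B held 1 TATAAA match, 30 bases before its start, and no other match, with a GC content of 57.7%. All these distances are from the RefSeq start of a window. In GENCODE release 29 MAP1B begins at 72107234, inside its first window and ahead of the TATAAA match there. STMN1 begins at 25906991 on the minus strand in that release, ahead of its first window. Which start was in use was not tested. A match is a stretch of letters and not a measured binding site.

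Total counts were 56732569 and 38597207 in baicalein 1 and 2, and 45341857 and 45618604 in control 1 and 2. Levels are given as CPM, counts scaled to library totals adjusted by TMM factors, with the mean ± SD over the 2 libraries of each group. Fold changes are those of baicalein over control, with the standard error (SE) of the fit. A gene is said to have risen or fallen where the quasi-likelihood test of edgeR gave it an adjusted p under 0.05, by the Benjamini-Hochberg method over all 18369 tested genes. By this rule 75.0% of all tested genes were called, 37.4% higher and 37.6% lower, so that a call is common in these data. Separate cultures are not mentioned for libraries of the same group, so the spread behind these p-values may be technical. The epithelial markers EPCAM, CDH1, KRT8, KRT18 and KRT19 lay at 157 CPM or more in every library. Not all luminal markers were abundant. ESR1 lay at 39.2 and 37.8 CPM after baicalein and 183 and 171 CPM in controls. TFF1 was near 1 CPM or below it, at 0.585 and 0.376 CPM after baicalein and 1.4 and 1.36 CPM in controls. The luminal list as a whole moved with the treatment, 8 of its 10 genes lower and 1 higher, with a summed level of 7296 and 7412 CPM in the baicalein libraries and 12881 and 14178 CPM in the controls, and its part in the results was not tested. The sum of the 5 neuron markers in the table (of 9 listed) was 5.28 and 5.16 CPM in the baicalein libraries and 6.67 and 7.21 CPM in the controls.

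Among all tested genes 37.4% were higher and 37.6% lower. Of the 8 genes 4 were higher after baicalein (MAP1B, MAP2, MAP4 and MAP7) and 4 were lower (MAP1A, MAP1S, MAPT and STMN1). Changes of at least 2-fold were found in 3 genes upwards and 2 downwards, where 12.2% and 15.2% of all tested genes were called with changes of that size. The 2 baicalein libraries lay on one side of both controls for all 8 genes, as they did for 86.9% of all tested genes. The median log2 fold change of the 8 was 0.06, beside 0.00 for all tested genes, and the calls went in both directions equally often. CPM is a share of the library, and more RNA per cell cannot be told apart from more cells that carry the transcript.

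**Figure D1:**
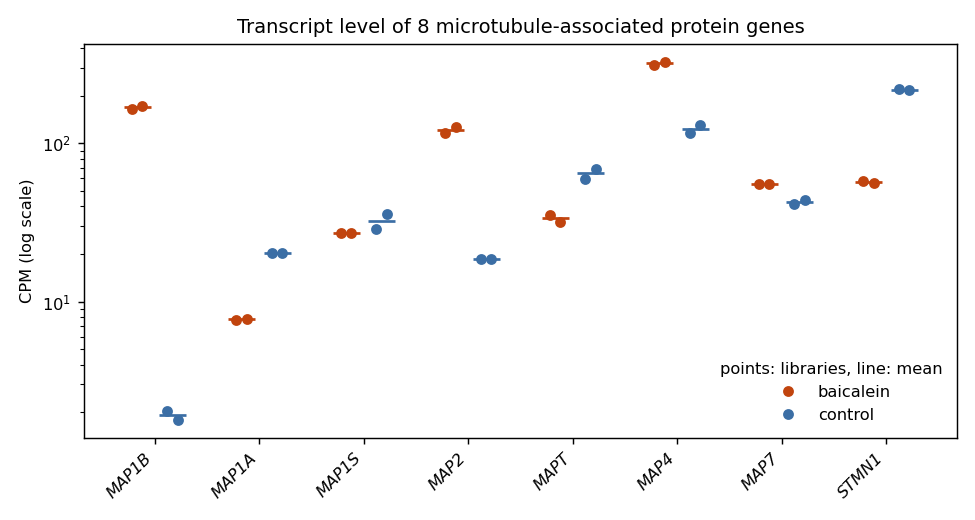
Transcript level of the 8 genes in CPM on a log axis, with baicalein libraries left of controls for each gene, points for single libraries and lines for the group means. MAP1B showed the widest gap, 169 CPM in baicalein libraries and 1.92 CPM in controls, and MAP1S the narrowest, 27.0 CPM and 32.4 CPM.

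MAP1B codes for a polyprotein that is cut into a heavy chain and a light chain, and it is the first MAP to appear in growing axons. The gene (ENSG00000131711) lies on chromosome 5, positions 72107234 to 72209570 of GRCh38, with 10 merged exons in GENCODE release 29. It had 8997 and 6451 counts in baicalein 1 and 2, against 97 and 84 counts in control 1 and 2. In CPM these were 165 and 173 after baicalein and 2.05 and 1.79 in controls. Every baicalein library was far above every control library, and the libraries within each group were close, with ratios of 1.05 and 1.15 between the higher and the lower. The log2 fold change was 6.46 (SE 0.07), an 87.8-fold difference that ranked 58th from the top of the 18369 tested genes. The controls were low and not empty, since 3 counts, the floor used here, stand for 0.0635 to 0.0638 CPM in them.

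The close relatives of MAP1B moved otherwise. MAP1A, whose product replaces MAP1B in mature neurons, had 419 and 291 counts after baicalein and 961 and 951 in controls. Its level was 7.66 and 7.81 CPM in the baicalein libraries and 20.3 and 20.2 CPM in the controls, so both treated libraries were low. The log2 fold change was -1.39 (SE 0.08). MAP1S codes for a smaller and widely expressed member of the family that has been linked to autophagy. It lay at 27.0 CPM in both baicalein libraries and at 28.8 and 36.0 CPM in control 1 and 2. The groups did not overlap, but control 1 was nearer to the baicalein libraries than to control 2. MAP1S fell with a log2 fold change of -0.26 (SE 0.09), and without control 2 the value was -0.09 and did not pass (edgeR adjusted p = 0.19).

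MAP2, tau and MAP4 share a microtubule-binding repeat region near the end of the protein, and their genes moved in different directions. MAP2, a dendritic protein in neurons that also anchors protein kinase A, had 6369 and 4683 counts after baicalein and 874 and 880 in controls. This came to 116 and 126 CPM in the baicalein libraries and 18.5 and 18.7 CPM in the controls. Both treated libraries were high, and the log2 fold change was 2.7 (SE 0.05), or 6.50-fold. MAP4, the main MAP of many non-neuronal cells, had 17125 and 12170 counts after baicalein and 5509 and 6133 in controls. The levels were 313 and 327 CPM in the baicalein libraries and 117 and 130 CPM in the controls. Both treated libraries were high, with a log2 fold change of 1.37 (SE 0.05), or 2.59-fold. MAPT had 1923 and 1183 counts after baicalein and 2823 and 3259 in controls. It lay at 35.2 and 31.8 CPM in the baicalein libraries and at 59.8 and 69.3 CPM in the controls, all treated values below all control values. The log2 fold change was -0.94 (SE 0.07), a 1.92-fold lower level after baicalein. The estrogen receptor gene ESR1 moved the same way, at 39.2 and 37.8 CPM after baicalein and 183 and 171 CPM in controls, and its part in the change of MAPT was not tested. The antisense gene MAPT-AS1 shares 75 exon bases with MAPT on the opposite strand and had 3 and 5 counts after baicalein and 15 and 20 counts in controls, few beside those of MAPT.

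MAP7, which stabilises microtubules in epithelial cells and recruits the motor kinesin-1, rose by the smallest step. It had 3033 and 2069 counts after baicalein and 1944 and 2053 in controls, or 55.5 and 55.6 CPM against 41.2 and 43.7 CPM. The log2 fold change was 0.39 (SE 0.05), or 1.31-fold. MAP7-AS1, on the opposite strand, shares 159 exon bases with MAP7 and had 167 and 107 counts after baicalein and 80 and 56 in controls. The strand setting of the counting is unknown, so reads from these overlaps cannot be assigned to a strand. STMN1 had the largest fall. Its 3147 and 2080 counts after baicalein stood against 10391 and 10193 counts in controls, or 57.5 and 55.8 CPM against 220 and 217 CPM. Libraries within a group were close together and the groups far apart, and the log2 fold change was -1.94 (SE 0.04), a 3.85-fold lower level. By rank from the bottom STMN1 stood at 902 of the 18369 tested genes, MAP1A at 1793 and MAPT at 3047.

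**Figure D2:**
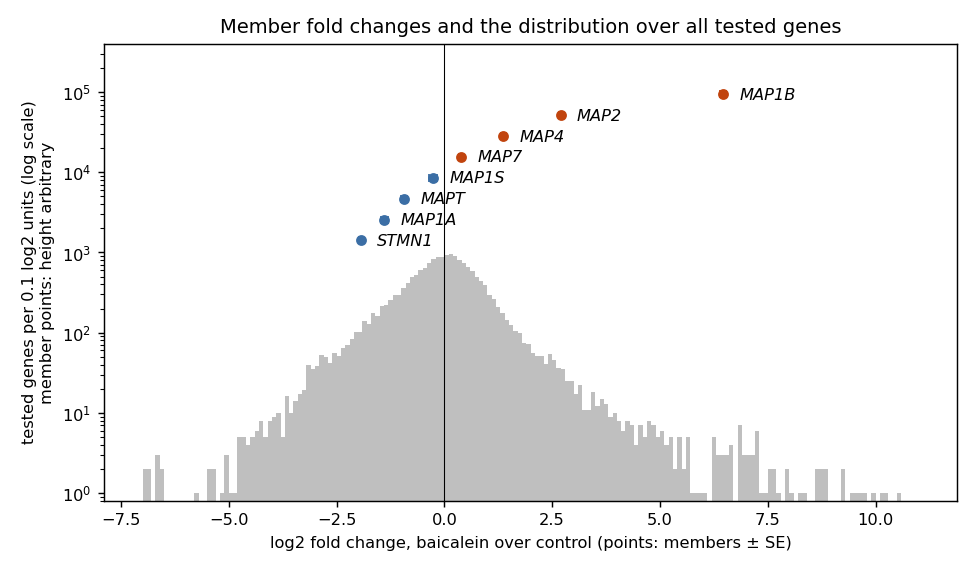
Log2 fold changes of the 8 genes (points with SE, placed at arbitrary heights) over a histogram of all tested genes on a log axis. MAP1B at 6.46 lies in the sparse upper tail, whereas STMN1 at -1.94, MAP4 at 1.37 and MAP2 at 2.7 lie on the flanks and MAP1S and MAP7 in the body of the distribution.

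Levels of different genes were compared per length, as CPM per kb of merged exons. After baicalein the order was MAP4 (21.4 ± 0.645 CPM per kb), MAP1B (13.4 ± 0.487), MAP2 (10.5 ± 0.568), MAP7 (10.2 ± 0.0121), STMN1 (9.06 ± 0.192), MAP1S (5.35), MAPT (2.24 ± 0.161) and MAP1A (0.728 ± 0.0101). MAP2 and MAP7 were not separated beyond the spread of their libraries. In controls the order was STMN1 (34.9 ± 0.360 CPM per kb), MAP4 (8.27 ± 0.654), MAP7 (7.79 ± 0.326), MAP1S (6.43 ± 1), MAPT (4.33 ± 0.453), MAP1A (1.91), MAP2 (1.61 ± 0.0131) and MAP1B (0.152 ± 0.0149). MAP4 and MAP7 overlapped there. MAP1B thus held place 2 of 8 after baicalein and place 8 of 8 in controls. The summed level of the 8 genes was 71.9 and 73.8 CPM per kb in the baicalein libraries and 63.9 and 66.8 in the controls. STMN1 made up 12.4% of that sum after baicalein and 53.4% in controls, MAP4 29.4% and 12.6%, and MAP1B 18.4% and 0.233%. With the length of the longest annotated transcript in place of merged exons, STMN1 came to place 2 and MAP1B to place 3 after baicalein. In controls MAP1S then held place 3, MAPT place 4 and MAP7 place 5, but their libraries overlapped and their order was not resolved. These control levels were 9.47 ± 1.48, 9.47 ± 0.991 and 9.35 ± 0.391 CPM per kb. The share of MAP1B was then 13.1% after baicalein and 0.133% in controls. The sum was then lower after baicalein, 106 and 108 against 118 and 122 CPM per kb, so the direction of the sum depends on the length used.

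**Figure D3:**
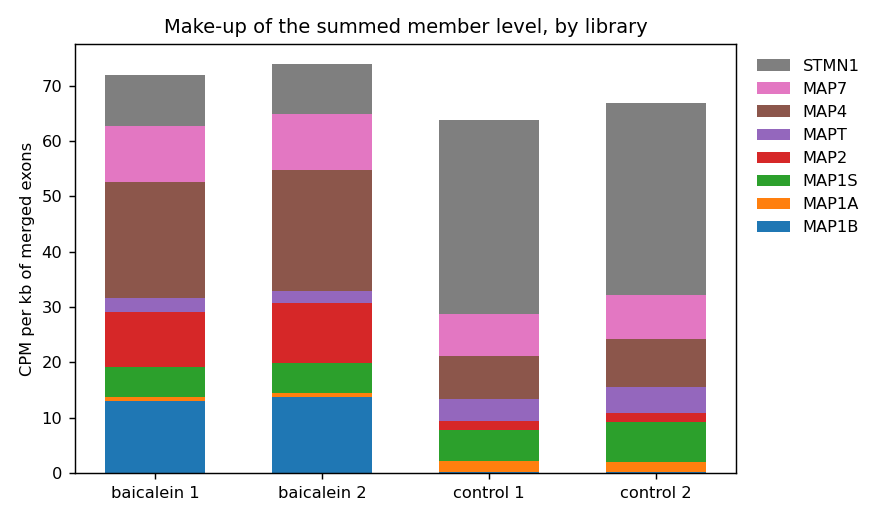
Stacked bars of the level of each of the 8 genes in CPM per kb of merged exons, for baicalein 1 and 2 and then control 1 and 2. STMN1, 53.4% of the sum in controls, was 12.4% after baicalein, where MAP4, MAP1B and MAP2 took 29.4%, 18.4% and 14.4%.

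The genes beside the 8 on the chromosome were looked at as the position of the members was not used to choose them. Of the 16 nearest tested protein-coding neighbours, 8 rose, 7 fell and 1 did not pass, where 37.4% of all tested genes rose and 37.6% fell. MRPS27, a mitochondrial ribosomal protein gene that ends 9.84 kb from MAP1B, had 124 ± 2.39 CPM after baicalein and 115 ± 0.673 CPM in controls (log2 fold change 0.11), and MCCC2 on the other side, 449 kb away, had 166 ± 0.0615 and 210 ± 4.88 CPM (-0.34). Both neighbours of MAP2 rose as MAP2 did, PIKFYVE, 1065 kb away, with a log2 fold change of 0.94 and RPE, 268 kb away, with 0.47. Both neighbours of MAPT went opposite to it. KANSL1, which lies 1.58 kb away, had 178 ± 6.52 CPM after baicalein and 70 ± 0.521 CPM in controls (2.54-fold). PLEKHM1, 404 kb away, had a log2 fold change of 0.75. Both neighbours of MAP4 also went opposite, the helicase gene DHX30 with -0.37 and CDC25A, a cell cycle phosphatase gene, with -2.55. The other pairs were split. TP53BP1 fell (-0.42) and PPIP5K1 rose (0.24) beside MAP1A, FCHO1 fell (-1.42) and UNC13A rose (1.22) beside MAP1S, and BCLAF1 rose (1.12) and MAP3K5 fell (-0.77) beside MAP7. PAQR7, 12.9 kb from STMN1, fell with -1.32, while PAFAH2 on the other side of STMN1 did not pass, with 25.2 ± 0.334 CPM after baicalein and 24.6 ± 0.189 CPM in controls.

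Genes with the closest pattern were found by the Euclidean distance between log2 CPM values over the 4 libraries, each gene centred on its mean, among 12604 genes. Nearest to MAP1B were ATP13A4 (distance 0.447), RAB39B (0.474) and GDF15 (0.492). ATP13A4, which codes for a transport ATPase, had 42.3 and 39.6 CPM after baicalein and 0.508 and 0.595 CPM in controls. RAB39B, a small GTPase gene, had 91.6 and 99.0 CPM after baicalein and 1.10 and 1.45 CPM in controls. Closest to MAPT were NAIP, FBXO2 and WAPL-DT, at distances of 0.042 to 0.051. NAIP has near-identical copies in the genome, so its counts are uncertain. STMN1 was nearest to the checkpoint kinase gene CHEK2 (0.013), DTX4 (0.032) and BIRC5 (0.038), the gene of the mitotic and anti-apoptotic protein survivin. CHEK2 had 9.49 and 9.16 CPM after baicalein and 36.4 and 35.5 CPM in controls, and BIRC5 36.6 and 34.7 against 136 and 133 CPM. With 4 libraries in 2 groups, genes of a like fold change lie close by this measure.

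Most tubulin genes had lower levels after baicalein. Of 18 tested tubulin genes 14 were lower, 2 were higher and 2 did not pass, where 37.6% of all tested genes were lower. The tubulin genes had a median log2 fold change of -0.87 beside 0.00 for all genes. Their summed level, which the largest genes dominate, was 1926 and 1922 CPM in the baicalein libraries and 4723 and 5072 CPM in the controls. TUBA1B fell to 414 and 419 CPM after baicalein, against 1916 and 2084 CPM in controls, a log2 fold change of -2.26 (SE 0.04, edgeR adjusted p = 1.76e-21). TUBB4B had 222 and 217 CPM against 794 and 870 CPM, a log2 fold change of -1.92. TUBG1, which codes for the γ-tubulin that seeds new microtubules, fell to 77.0 ± 0.251 CPM after baicalein, against 242 ± 5.81 CPM in controls. TUBB had 543 ± 2.91 CPM after baicalein and 1133 ± 30.9 CPM in controls. The genes that rose were TUBB2B, with 13 and 12.2 CPM against 1.12 and 1.04 CPM (log2 fold change 3.54), and TUBE1, the gene of the centriolar ε-tubulin, with 66.7 and 65.8 CPM against 13.5 and 13.2 CPM (2.31). TUBA1C did not pass, with 355 ± 6.84 CPM after baicalein and 354 ± 21.3 CPM in controls. Tubulin genes of a class are very similar in sequence, TUBB2A and TUBB2B and the TUBA1 genes above all, so the split of reads among them is uncertain. Without control 2, 12 tubulin genes were lower and 3 higher.

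**Figure D4:**
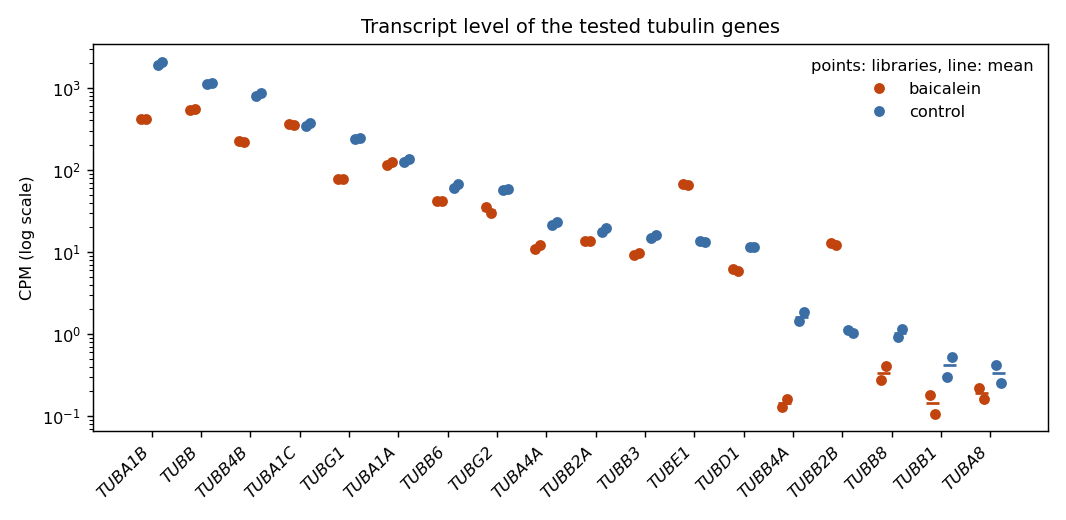
Transcript level of the 18 tested tubulin genes in CPM on a log axis, ordered by the control mean, with baicalein libraries left of controls. The baicalein points lie below the control points for TUBA1B (414 and 419 against 1916 and 2084 CPM) and most others, and above them for TUBB2B and TUBE1.

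Genes of proteins that follow or cap microtubule ends were mostly higher. Of 21 tested genes 17 were higher, 3 lower and 1 did not pass, where 37.4% of all tested genes were higher. The median log2 fold change of the 21 was 0.66. CLIP1, whose product CLIP-170 marks growing ends, had 283 ± 2.36 CPM after baicalein and 100 ± 2.3 CPM in controls (log2 fold change 1.5, SE 0.04, edgeR adjusted p = 2.19e-18). CAMSAP2, which protects minus ends, had 195 ± 3.30 CPM after baicalein and 99.5 ± 4.94 CPM in controls. CLIP3, a relative of CLIP1 found at the trans-Golgi, had 8.34 and 7.01 CPM against 1.40 and 1.28 CPM. CLIP4, with 291 and 186 counts after baicalein and 3 and 1 in controls, was named after its values were seen. Exceptions were CKAP5, the gene of a microtubule polymerase, which fell to 262 ± 0.612 CPM after baicalein, against 341 ± 4.06 CPM in controls, CAMSAP3 (log2 fold change -0.25) and NAV1 (-1.05, named after its values were seen). MAPRE1, which codes for the end-binding protein EB1, did not pass, with 205 ± 2.32 CPM after baicalein and 202 ± 8.50 CPM in controls.

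Of 21 tested genes for other proteins that bind along microtubules, 11 were lower, 4 higher and 6 did not pass. Their median log2 fold change was -0.34, and 37.6% of all tested genes were lower and 37.4% higher. MAP6D1, a relative of the cold-stability protein MAP6, had the largest fall, 13.6 and 11.9 CPM after baicalein against 113 and 120 CPM in controls (log2 fold change -3.17, SE 0.06, edgeR adjusted p = 1.18e-21). GTSE1, which is made in G2 and S phase, fell to 10.3 ± 0.756 CPM after baicalein, against 46.4 ± 0.467 CPM in controls, and EML5 had a log2 fold change of -1.36. MAP7D1, a relative of MAP7, rose with 91.6 ± 2.68 CPM after baicalein and 64.0 ± 3.51 CPM in controls, and EML4 with a log2 fold change of 0.21, a call that was lost with library totals alone. The other higher genes, DCLK2 and MTUS2, were named after their values were seen. DCLK2, a relative of doublecortin, had 285 and 176 counts after baicalein and 25 and 17 in controls, and MTUS2 had 42 and 26 against 9 and 11 counts.

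Among the relatives of STMN1 and the severing enzymes, which cut microtubules, 5 of 10 tested genes were lower, 4 higher and 1 did not pass. Their median was -0.13, and 37.6% of all tested genes were lower and 37.4% higher. STMN3, named after its values were seen, had 13 and 11 counts after baicalein against 119 and 123 in controls, the same direction as STMN1, whereas STMN4 had 20 and 17 counts against 2 and 0. FIGNL1, known for a role in recombination repair, fell to 26.8 ± 1.29 CPM after baicalein, against 86.1 ± 3.27 CPM in controls. Of the severing enzyme family, KATNAL1 and KATNAL2 fell with log2 fold changes of -1.12 and -0.74, and FIGN rose with 1.03. SPAST (0.17, edgeR adjusted p = 0.043) and KATNA1 (0.16, 0.0489) passed narrowly, and both calls were lost when control 2, baicalein 1 or baicalein 2 was left out.

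Genes that fold or modify tubulin were mixed. All 7 folding cofactor genes passed, 3 higher and 4 lower (median -0.23), where 37.4% of all tested genes were higher and 37.6% lower. TBCE, with 90.6 ± 1.46 CPM after baicalein and 48.0 ± 3.19 CPM in controls, and TBCEL (log2 fold change 1.02) rose, while TBCD, with 81.9 ± 1.36 and 165 ± 4.22 CPM, fell. The rise of TBCA (0.14) did not pass without baicalein 1 (edgeR adjusted p = 0.09) or with library totals alone. Of 21 tested tubulin-modifying enzymes 11 were lower, 5 higher and 5 did not pass (median -0.20), beside the same shares of all tested genes. VASH1 and VASH2, which code for the catalytic subunits that remove the last tyrosine of α-tubulin, fell to 6.18 ± 0.105 and 1.38 ± 0.168 CPM after baicalein, against 30.0 ± 0.0968 and 9.58 ± 0.374 CPM in controls. SVBP, the gene of their partner, had 2.88 ± 0.689 CPM after baicalein and 2.63 ± 0.381 CPM in controls and did not pass. The tubulin deacetylase gene SIRT2 rose with 36.1 ± 0.678 CPM after baicalein and 18.5 ± 1.37 CPM in controls, the polyglutamylase gene TTLL11 with a log2 fold change of 1.22, and AGTPBP1, which codes for an enzyme that shortens glutamate chains, with 0.80. AGBL2 fell with -1.12.

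Phosphorylation at many sites loosens tau and other MAPs from the microtubule, and genes of the enzymes involved moved in both directions. Of 32 tested kinase and phosphatase genes 15 were higher, 12 lower and 5 did not pass (median 0.13). Of all tested genes 37.4% were higher and 37.6% lower. FYN, a kinase that binds tau, had 7.59 and 8 CPM after baicalein and 0.847 and 1.32 CPM in controls (log2 fold change 2.84, SE 0.15, edgeR adjusted p = 1e-13). MARK1, whose product phosphorylates the repeats of tau, MAP2 and MAP4, had 13.9 and 12.9 CPM after baicalein and 2.9 and 2.7 CPM in controls (log2 fold change 2.26). GSK3B, a main tau kinase, had 197 ± 1.15 CPM after baicalein and 95.0 ± 1.23 CPM in controls, while GSK3A did not pass, with 59.1 ± 0.487 and 58.2 ± 0.0858 CPM. CDK5 and its activator CDK5R1 fell to 3.13 ± 0.405 and 3.60 ± 0.572 CPM after baicalein, against 6.22 ± 0.290 and 7.83 ± 0.244 CPM in controls. The phosphatase gene PPP1CA fell with a log2 fold change of -0.82.

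**Figure D5:**
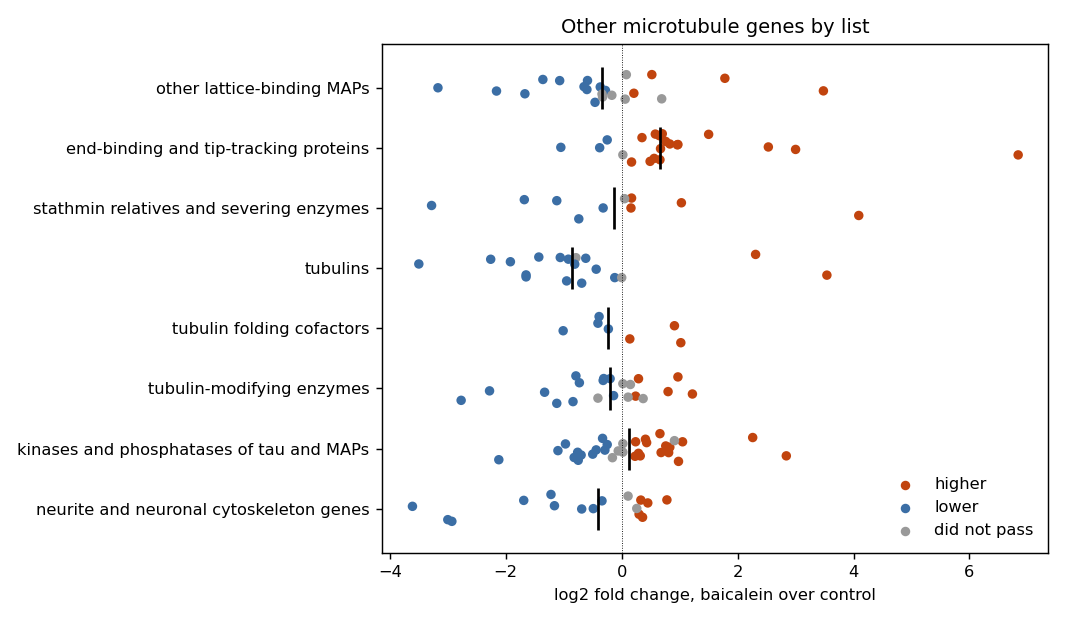
Log2 fold changes of the tested genes in 8 lists of microtubule and neurite genes, 1 row per list, coloured by the call, with a black bar at each median. Most end-binding genes lie right of 0 (median 0.66) and most tubulins left of 0 (median -0.87), and the other lists straddle it.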

How the data were processed

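The single table the authors deposited holds raw counts, whole numbers with no scaling to library size. The build GRCh38, the aligner STAR 2.7.8a, RSEM 1.3.3, cutadapt 2.3, FastQC 0.11.8 and DESeq2 1.34 appear in the submitters' processing notes without role or order. The sources used here do not state the annotation release or strand setting. If the counts are rounded RSEM estimates, genes that share reads carry assignment error. The smallest row total was 10.

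Each column was tied to a sample through its description and to a group through its title. Symbols came from the reference names table (20470 of 20515 IDs matched), and positions and lengths from GENCODE 29, which held 19849 IDs and may not be the authors' release. edgeR 4.0.16 in R 4.3.3 was fitted to all 4 libraries without covariates (TMM, filterByExpr with a minimum count of 10 and total of 15, robust quasi-likelihood). It tested 18369 genes and left out 2146. SE is the log2 fold change divided by the square root of F. The method was tried on simulated data in which few genes changed and all shared the same dispersion. Most genes were called in the real data, so the simulation cannot speak for error rates there. Floors of 3 counts cover counting error only, since PCR copies were not told apart.

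Members and lists were chosen with earlier results of these data known. The text names all members, up to 3 rises and 3 falls per list (adjusted p under 0.05, mean log2 CPM of at least 1), the 3 nearest patterns of MAP1B, MAPT and STMN1, and markers. The rule takes markers of at least 1 CPM in any library. The nearest tested protein-coding neighbour on each side of a member and the antisense genes that overlap members were added to the rule, and TUBB, TUBA1C, MAPRE1, SVBP, GSK3A, STMN4, RBFOX3, SLC17A7, VIM, COL1A2 and PTPRC were named after their values were seen. Alternatives were other scalings and filters, DESeq2 1.42.0, limma-voom (limma 3.58.1), other thresholds, a replicate block, leaving out each library and another gene length. Where a library was left out, the lone one of its group was assumed to vary like the other group.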

Additional observations from a re-analysis of the deposited data

How the results depend on the processing

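All 8 members kept their direction under the 3 other scalings, both other filters, DESeq2, limma-voom, the replicate block and leaving out each library, and their calls held there except that of MAP1S without control 2. At a threshold of 0.01 the members called were 4 higher and 3 lower, and against a 1.5-fold change 3 and 3. Their log2 fold changes ranged from 6.35 to 6.56 for MAP1B, 2.60 to 2.76 for MAP2, 1.27 to 1.46 for MAP4, 0.28 to 0.44 for MAP7, -0.42 to -0.09 for MAP1S, -1.05 to -0.82 for MAPT, -1.50 to -1.37 for MAP1A and -2.05 to -1.91 for STMN1. Library totals alone moved the median of all genes to -0.10. A test against a 1.5-fold change, by construction stricter, called 3090 genes higher and 3581 lower. It called 2 higher and 5 lower among other lattice-binding MAPs, 9 and 1 among end-binding genes, 3 and 6 among tubulin-modifying enzymes, and 9 and 7 among kinases and phosphatases. By the same test 1 folding cofactor was lower, 1 neurite gene higher and 2 genes of the stathmin and severing list higher. In that list 2 genes were also higher with upper-quartile scaling, library totals, no filter, DESeq2 and a threshold of 0.01, and 2 to 4 when a library was left out. DESeq2 called 2 neurite genes higher. The cause was not tested. With the longest transcript as length, the shares in the summed level after baicalein and in controls were 13.1% and 0.133% for MAP1B, 33.4% and 11.5% for MAP4, and 17.9% and 61.7% for STMN1.

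Replicate numbers are shared between the groups, but deviations of same-numbered libraries correlated at only 0.014, and nothing in the labels pairs them. With the number as a block 6894 genes were higher and 6909 lower, and no count of calls among members or lists changed. Precision is limited by 2 libraries per group, and counts under about 20, as in STMN4, give wide errors.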

Other observations

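MAP1B and MAP2 are neuronal in textbooks, and other genes of the neurite cytoskeleton were measured beside them. Of 16 tested genes of this list 9 were lower, 5 higher and 2 did not pass (median log2 fold change -0.42). Of all tested genes 37.6% were lower and 37.4% higher. GPRIN1, a neurite outgrowth gene, fell to 3.10 ± 0.0940 CPM after baicalein, against 23.7 ± 0.618 CPM in controls, and MARCKSL1 to 24.0 ± 0.201 CPM, against 77.6 ± 3 CPM. TUBB3, the neuronal β-tubulin gene, had 9.49 ± 0.394 CPM after baicalein and 15.3 ± 0.950 CPM in controls. The largest falls of the list were in NES and CNTN1, named after their values were seen. NES had 20 and 19 counts after baicalein and 233 and 261 in controls (log2 fold change -3.61). CNTN1 had 13 and 9 counts against 102 and 80 (-3.0). The higher genes named by the rule were DPYSL2, which codes for the tubulin-binding protein CRMP2 (22.0 ± 0.0826 CPM after baicalein and 12.8 ± 0.627 CPM in controls), UCHL1 (log2 fold change 0.45) and L1CAM (0.36). PRPH (0.30) and ENO2 (0.33), named after their values were seen, were the other higher ones. DESeq2 did not call UCHL1 (adjusted p = 0.0598), PRPH (0.123) or ENO2 (0.0731). Among neuron markers the synaptic gene SYN1 had 0.786 and 0.859 CPM after baicalein and 3.64 and 3.49 CPM in controls. SYP, also synaptic, did not pass, with 3.11 and 2.79 CPM against 2.39 and 2.72 CPM. GAD1 had 44 and 42 counts after baicalein and 1 and 4 in controls, and RBFOX3 had 0.384 and 0.268 CPM against 0.423 and 0.468 CPM. SLC17A7 had 11 and 4 counts after baicalein and 9 and 21 in controls.

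The basal epithelial markers fell in 3 of 4 tested cases, where 37.6% of all tested genes fell and 37.4% rose. MYLK had 3.51 and 3.89 CPM after baicalein and 9.89 and 9.44 CPM in controls. TP63 had 0.293 and 0.403 against 4.61 and 5.47 CPM, and ACTA2 had 21.7 and 22.2 against 30.8 and 31 CPM. OXTR did not pass (55 and 51 counts against 59 and 63). Of 3 tested fibroblast markers 2 were higher, where 37.4% of all tested genes were higher. COL1A1 had 150 and 140 CPM after baicalein and 90.0 and 100 CPM in controls, and LUM had 56 and 40 counts against 13 and 12 (log2 fold change 1.97). VIM did not pass, with 0.329 and 0.295 CPM against 0.508 and 0.489 CPM, and COL1A2, not tested, had 1 and 0 counts against 5 and 5. The leukocyte marker PTPRC had 5 and 6 counts after baicalein and 0 in both controls. Of the luminal markers CDH1 rose (log2 fold change 0.94), EPCAM did not pass (0.10), and KRT8 (-1.22), KRT18 (-0.47), KRT19 (-0.91), ESR1 (-2.20), PGR (-3.05), GATA3 (-1.48), FOXA1 (-0.59) and TFF1 (-1.47) fell. The part of these markers in the results was not tested.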
